A study of Mus musculus with 16 samples.

Results

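Pdx1, Nkx6-1, Mafa, Nkx2-2 and Pax4 are 5 of 20807 annotated protein-coding genes on chromosomes 1 to 19, and they were examined here for open chromatin in mouse pancreatic islets. The assay was ATAC-seq, in which a transposase inserts adapters into accessible DNA, and the peaks called in each sample were the data. Islets came from the 8 inbred founder strains of the Diversity Outbred mice, each with 1 female and 1 male sample, 16 samples in all. The strains were 129S1_SvImJ (129), A_J (AJ), C57BL/6J (B6), NOD_ShiLtJ (NOD), NZO_HlLtJ (NZO), CAST_EiJ (CAST), PWK_PhJ (PWK) and WSB_EiJ (WSB). The text of the study names the first 5 classical and the last 3 wild-derived. No treatment, allele or age was given in the labels, each sample was a selection of 50 islets, and islets hold several endocrine cell types and other cells, so a lower signal from fewer cells of a type and a lower signal per cell cannot be told apart. Peaks of the 16 lists that overlapped or touched were merged into 347712 regions, and the regions of a gene were those overlapping its body or the 20 kb on each side. This gave 58 regions, 16 at Pdx1, 10 at Nkx6-1, 7 at Mafa, 17 at Nkx2-2 and 8 at Pax4. Of these, 16 were listed in all 16 samples, out of 40940 such regions on the autosomes. The value of a sample in a region is the highest deposited summit signal there, divided by the median of that sample over those 40940 regions, so that 1 is the typical shared region. This is called the scaled signal below.

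All 5 genes encode homeodomain or basic leucine zipper transcription factors of the endocrine pancreas. Pdx1 is needed for the pancreas to form and later keeps insulin and glucose-sensing genes active in beta cells. Nkx6-1 and Nkx2-2 hold the beta cell state and repress genes of other islet cells, Mafa is the factor of mature beta cells that binds the insulin promoter, and Pax4 acts mainly in the developing pancreas, where it favours the beta over the alpha cell fate. Such genes are commonly controlled by a promoter together with enhancers lying kilobases away, and both appear in ATAC-seq as open regions.

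Coordinates are those of mm10, with genes from GENCODE M21. Pdx1 lies on the plus strand of chr5:147269959-147275848. The other 4 genes lie on the minus strand, Nkx6-1 at chr5:101658139-101664996, Mafa at chr15:75745490-75748228, Nkx2-2 at chr2:147177546-147194243 and Pax4 at chr6:28442334-28449353. Distances are given from the 5′ end of the gene to the strongest summit of the region, and upstream follows the direction of transcription.

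The DNA under 6 summits is shown. In 3 of the windows strains differed in signal or in listed peaks in the results further on. The others are the most open start of the 5 genes at Nkx6-1 and the open region nearest Pax4 in every sample. The nearer upstream element of Pdx1 is shown for comparison. Each run is 300 bases of the RefSeq GRCm38.p6 reference around the strongest summit, read 5′ to 3′ on the strand of the gene, with none of it in an annotated UTR. All of it is reference sequence of the B6 strain, and the sequences of the other strains were not analysed here. Capitals mark matches, on either strand, to any of 10 short words: TAATTA and TAATTG of homeodomain factors, TNAAGTG of Nkx2 factors, TGCTGAC of Maf factors, TGTTTAC of forkhead factors, CAGATG of Neurod1-type factors, GTTGCCA of Rfx factors, AGATAA of Gata factors, TGANTCA of AP-1 and GGGCGG of Sp factors.
Pdx1, 5.8 kb upstream, chr5:147263973-147264272: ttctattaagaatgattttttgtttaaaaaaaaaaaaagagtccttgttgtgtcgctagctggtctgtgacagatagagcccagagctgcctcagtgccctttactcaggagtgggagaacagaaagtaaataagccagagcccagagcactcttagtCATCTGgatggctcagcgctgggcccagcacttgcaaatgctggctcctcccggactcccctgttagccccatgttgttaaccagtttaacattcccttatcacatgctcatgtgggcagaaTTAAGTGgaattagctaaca
Pdx1, 2.4 kb upstream, chr5:147267437-147267736: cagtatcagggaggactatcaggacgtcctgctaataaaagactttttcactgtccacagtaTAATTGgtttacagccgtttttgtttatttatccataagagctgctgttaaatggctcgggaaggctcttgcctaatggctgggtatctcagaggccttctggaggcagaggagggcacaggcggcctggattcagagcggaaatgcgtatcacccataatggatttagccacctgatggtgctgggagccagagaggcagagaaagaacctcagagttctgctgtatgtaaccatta
Nkx6-1, promoter, chr5:101665294-101665593: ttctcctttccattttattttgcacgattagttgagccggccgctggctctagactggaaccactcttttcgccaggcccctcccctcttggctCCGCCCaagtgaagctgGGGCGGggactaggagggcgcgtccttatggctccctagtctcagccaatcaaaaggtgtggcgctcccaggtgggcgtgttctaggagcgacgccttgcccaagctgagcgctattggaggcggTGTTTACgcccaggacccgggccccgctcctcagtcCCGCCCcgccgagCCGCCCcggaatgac
Nkx2-2, downstream, chr2:147170812-147171111: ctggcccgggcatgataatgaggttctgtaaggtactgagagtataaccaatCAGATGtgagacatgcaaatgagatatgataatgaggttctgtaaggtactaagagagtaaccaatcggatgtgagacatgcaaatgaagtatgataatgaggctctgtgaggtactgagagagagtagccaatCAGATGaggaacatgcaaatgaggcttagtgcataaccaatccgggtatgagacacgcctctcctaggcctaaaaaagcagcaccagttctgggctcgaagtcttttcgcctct
Nkx2-2, upstream start, chr2:147195038-147195337: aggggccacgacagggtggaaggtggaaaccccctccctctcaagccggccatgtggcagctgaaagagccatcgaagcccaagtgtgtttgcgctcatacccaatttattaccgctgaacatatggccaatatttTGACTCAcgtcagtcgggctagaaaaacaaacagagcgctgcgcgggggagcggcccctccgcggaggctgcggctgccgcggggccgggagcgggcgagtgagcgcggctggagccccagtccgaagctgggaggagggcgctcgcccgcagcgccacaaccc
Pax4, 11.4 kb upstream, chr6:28460626-28460925: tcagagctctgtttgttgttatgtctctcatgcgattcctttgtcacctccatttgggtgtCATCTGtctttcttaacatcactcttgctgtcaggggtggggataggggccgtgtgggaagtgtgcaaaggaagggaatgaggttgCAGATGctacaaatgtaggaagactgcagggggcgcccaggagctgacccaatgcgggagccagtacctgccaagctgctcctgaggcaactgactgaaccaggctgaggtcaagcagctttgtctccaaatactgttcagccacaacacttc

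A match to such a short word is a description and not a binding site. The word CAGATG was found in 17 of the 58 windows at the 5 genes and in 26.4% of the windows of all 347712 regions. Among the 16 windows of regions listed in every sample, GGGCGG was found in 5, against 23.0% of the windows of all such regions, and TNAAGTG in 2, against 15.3%. The Nkx6-1 promoter window held 4 copies of GGGCGG and 1 of TGTTTAC, and had a GC content of 63.0%. The Pdx1 window at 5.8 kb held 1 TNAAGTG and 1 CAGATG, with a GC content of 46.0%.

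Of the 5 genes, 4 had an open region over a start of transcription in every sample, and Pax4 had none in any. Nkx6-1 was the most open of them, with a mean scaled signal of 3.12 ± 0.624 (SD, n = 16). This placed it at the 65.1 percentile of 10985 protein-coding genes, whose median was 2.21. Each of these genes was taken at its most open start region, where that was listed in all 16 samples. Mafa followed with 1.84 ± 0.681, at the 41.3 percentile. The upstream starts of Nkx2-2 had 1.80 ± 0.530, and Pdx1 had 1.62 ± 0.492, at the 36.0 percentile. These last 3 means lay within 1 SD of each other. The region over the protein-coding starts of Nkx2-2 was lower, at 0.934 ± 0.175. Its 13.8 percentile sets this less open start region of the gene against the most open start region of each gene. A start region was taken whole, and a single peak spanned the start base itself in 14 samples at Pdx1, in 11 at Nkx6-1 and in 15 at Mafa.

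**Figure D1:**
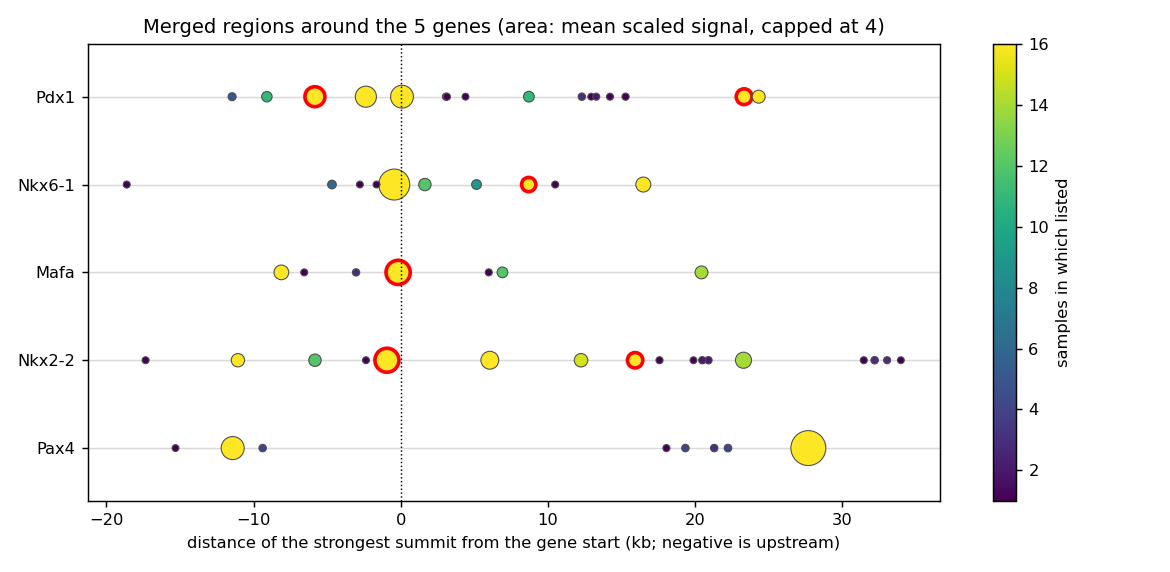
The 58 regions are drawn by the distance of their strongest summit from the start of the gene, in kb, with area for the mean scaled signal (capped at 4), colour for the number of samples listing the region and a red ring for an adjusted p under 0.05 for strain. Pdx1, Mafa, Nkx6-1 and Nkx2-2 have a region listed in all 16 samples at the start, whereas the nearest such region upstream of Pax4 lies 11.4 kb away.

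At Pax4, the nearest region listed in any sample lay 9247 bases upstream of the first start, and the gene body held no region at all. The strongest nearby element was 11.4 kb upstream, in intergenic DNA at chr6:28460462-28461075, with a mean scaled signal of 1.65 ± 0.333 (SD, n = 16) and a peak in every sample that reproduced between the sexes in all 8 strains. Its lowest value was 1.02 in the NZO male, its median 1.71 and its highest 2.22 in the CAST female. The other region listed in all samples, 27.7 kb downstream, covers the starts of the housekeeping neighbours Gcc1 and Arf5, spans 17812 bases, and had its highest signal, 11.3, in the NOD female and a median of 9.34.

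Of the 42 regions not listed in every sample, 19 were listed in 1 sample alone and 6 in 12 to 15 samples. The irreproducible discovery rate (IDR) measures whether a peak ranks alike in both samples of a strain. A region listed in 1 sample has no peak in the other sample of its strain, so it could not pass, and none was in a strain list. Of the 16 regions listed in all samples, 8 passed an IDR of 0.05 in all 8 strains. The number of the 58 regions listed per sample ran from 19 in the AJ male and the NOD female to 40 in the WSB female. Over all regions, the AJ male also had the shortest list, with 71121 regions, and the WSB female the longest, with 160818. The lists hold no read totals, so no value here is scaled to sequencing depth, and the median summit signal over the shared regions was lowest for the PWK male, at 32.0, and highest for the CAST male, at 136, before scaling.

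The strains were compared by limma on log2(signal + 1), after subtracting each sample's median, with sex in the model and all 40940 regions in the fit. Called means a Benjamini-Hochberg adjusted p under 0.05 over those regions. Strain was called in 6 of the 16 regions at the 5 genes, against 35.7% of all regions tested, so the share at these genes, 37.5%, was near the background. The median SD of the 8 strain means was 0.36 on the log2 scale at the 5 genes and 0.38 over all regions. The called regions were 2 at Pdx1, 2 at Nkx2-2, 1 at Mafa and 1 at Nkx6-1, and none was at Pax4. Leaving out 1 library at a time gave between 1 and 8 calls at the 5 genes, while the share called over all regions ran from 18.7% without the CAST female to 60.1% without the NZO female. With 1 female and 1 male per strain, the spread between the sexes of a strain was the only replicate error, and nothing in the labels said whether a sample was 1 animal or a pool.

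**Figure D2:**
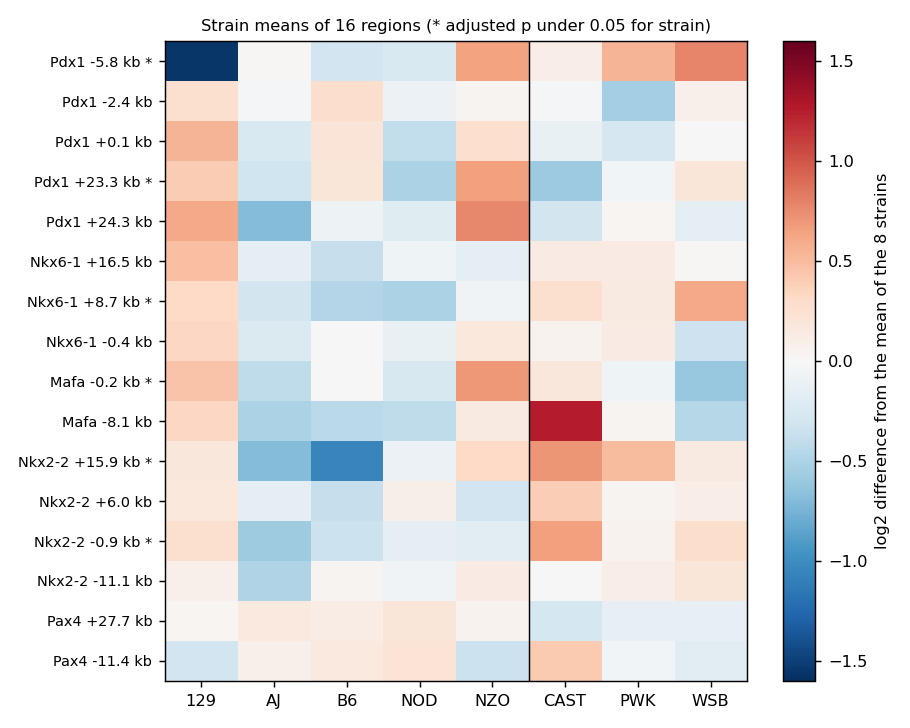
For the 16 regions listed in all samples, colour gives the difference of each strain's mean from the mean of the 8 strains, in log2 units, with the classical strains left of the line. The region 5.8 kb upstream of Pdx1 is lowest in 129 and the region 8.1 kb upstream of Mafa is highest in CAST.

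Among the 16 regions listed in every sample, the smallest adjusted p for strain was at the region 5.8 kb upstream of Pdx1, at chr5:147263932-147264576, in an intron of Plut, a noncoding gene on the opposite strand. In 129 it was low, with a scaled signal of 0.362 in the female and 0.348 in the male. The other 14 samples ran from 0.683 in the NOD male to 2.04 in the NZO male, and no sample of another strain overlapped with 129. AJ had 1.15 and 1.04, B6 0.702 and 1.07, NOD 1.20 and 0.683, NZO 1.41 and 2.04, CAST 1.14 and 1.18, PWK 1.74 and 1.44, and WSB 1.90 and 1.83, female before male. The mean of 129 was 0.355 ± 0.0101 (SD, n = 2) and that of the other samples 1.32 ± 0.423 (n = 14), a ratio of 3.73. The limma F test across strains gave an adjusted p of 0.00161. In the contrast of 129 with the mean of the other 7 strains, the signal fell by 1.78 on the log2 scale (SE 0.23, adjusted p = 0.00259), and 2.08% of all regions were called lower in 129. The 8 contrasts of 1 strain with the rest share samples with each other and with the F test, and they gave 4 calls in 128 tests at the 5 genes, 3.12%, against 7.34% of the tests over all regions. Its summit lay at the same place in 129 as elsewhere, within 71 bases over the 16 samples, and the peak in the 129 strain list did not pass IDR (0.107) while those of the other 7 strains did. On the deposited mean signal the signal fell by 1.15 in 129, still past the threshold. Every one of the 16 fits that left out a library gave a call of the F test, with an adjusted p between 0.000659 and 0.0109. Without strain 129 the adjusted p was 0.0572, and the F test over the other 7 strains was then just above the threshold.

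WSB stood highest by its mean, 1.86 ± 0.0472, though its 2 samples lay below the NZO male. In the contrast of WSB with the other 7 strains the difference was 0.90 on the log2 scale (SE 0.23, limma adjusted p = 0.0388), and 2.67% of all regions were called higher in WSB. That call was lost in 8 of the 16 fits without 1 library, without either 129 sample, either CAST sample, either WSB sample, the AJ male or the PWK male, where the difference stayed between 0.88 and 0.92. It was also lost on the deposited mean signal, at 0.56 (limma adjusted p = 0.173), and without strain 129, at 0.66 (limma adjusted p = 0.149). At the other 4 regions of Pdx1 listed in all samples, 129 was not the lowest strain. Farther upstream, a weak region at 9.1 kb was listed in 11 samples. There the 129 male had a scaled signal of 0.275, and the 129 female and both samples of NOD and PWK had no peak. The region 2.4 kb upstream, at chr5:147267317-147269086, was 1.38 and 1.87 in 129 and 0.919 and 0.906 in PWK, the lowest strain, with a limma adjusted p of 0.173 across strains. At the Pdx1 start, chr5:147269763-147271379, 129 was the highest strain, with 2.36 in the female and 2.19 in the male. The PWK samples spanned nearly the whole range there, at 0.726 and 2.28, and the adjusted p was 0.383.

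**Figure D3:**
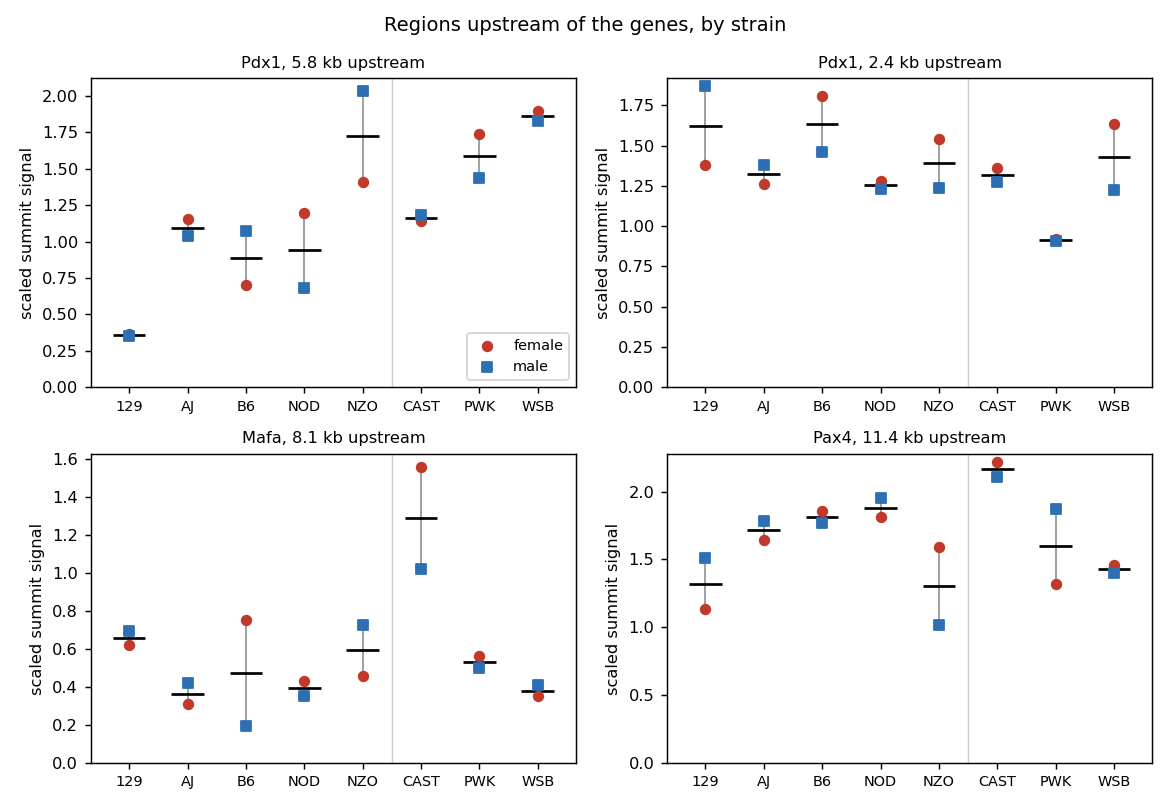
Scaled summit signal is plotted by strain for 4 regions upstream of Pdx1, Mafa and Pax4, with circles for females, squares for males and bars for the mean of the pair. Both 129 samples lie under every other sample 5.8 kb upstream of Pdx1, and both CAST samples lie above every other sample 8.1 kb upstream of Mafa.

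Another Pdx1 region, 23.3 kb downstream at chr5:147292340-147293537 in intergenic DNA, was called for strain (limma adjusted p = 0.0375). It ran from 0.397 in the CAST male to 1.27 in the NZO male, with a median of 0.689, and the strain means ran from 0.439 ± 0.0594 in CAST to 1.07 ± 0.289 in NZO (SD, n = 2). Its call held in 5 of the 16 fits without 1 library, those without a B6 sample, a PWK sample or the NZO female, and the adjusted p over the 16 fits ran from 0.0183 to 0.110. The NZO male was also the library with the highest duct and leukocyte and the lowest beta cell marker sums. The markers within a sum did not all move together, and their part in the result was not tested. A neighbouring region, 24.3 kb downstream, gave an adjusted p of 0.108.

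Nkx6-1 was not called for strain at its promoter, where the strain means spanned 0.66 on the log2 scale. The region over its start, chr5:101664440-101666030, was highest in the 129 female at 4.31 and lowest in the AJ female at 2.28, with a median of 3.11. The samples of a strain overlapped with those of other strains, B6 alone spanning 4.00 and 2.31, and the limma adjusted p across strains was 0.436. The strain call at Nkx6-1 was for an intergenic region 8.7 kb downstream of the start and beyond the 3′ end of the gene, at chr5:101655609-101656683. It was 0.717 in the WSB female and 0.886 in the WSB male, 0.369 and 0.373 in B6 and 0.384 and 0.341 in NOD, with an adjusted p of 0.0302. This call held in 8 of the 16 fits without 1 library, those without a 129, NZO or PWK sample, the AJ female or the B6 male, and the adjusted p ran from 0.00952 to 0.104. The third region listed in all samples, 16.5 kb downstream, was 1.26 in the 129 female and at most 0.750 in the other samples, with an adjusted p of 0.478. Its strongest summits ran over 3190 bases between samples, so these values can stand for different peaks.

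At Mafa, the region over the start, chr15:75747471-75748791, was called for strain (limma adjusted p = 0.0398). WSB had the lowest values, 1.08 and 1.19, and NZO and 129 the highest strain means, 2.92 ± 1.07 and 2.44 ± 0.554 (SD, n = 2). The NZO male, at 3.67, stood apart from the NZO female at 2.16. That library also had the highest summed signal over starts of 5 leukocyte markers, 3.80 against 0.662 to 1.70 in the other 15. It had the lowest over 7 beta cell markers, 9.20 against 11.2 to 15.6. The markers within a sum did not all move together. Cd74, at up to 2.85, was the strongest leukocyte marker, and Cd52 and Laptm5 had no start region in any sample. By strain mean, NZO was lowest at G6pc2, 1.99, and Ucn3, 0.997, and highest at Slc2a2, 2.87. At the other beta cell markers it lay between. The part of these sums in the result was not tested. The Mafa call stood in only 4 of the 16 fits without 1 library, those without either NZO sample, the 129 male or the B6 female. Without the NZO male the adjusted p was 0.0287, and over the 16 fits it ran from 0.00362 to 0.114.

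**Figure D4:**
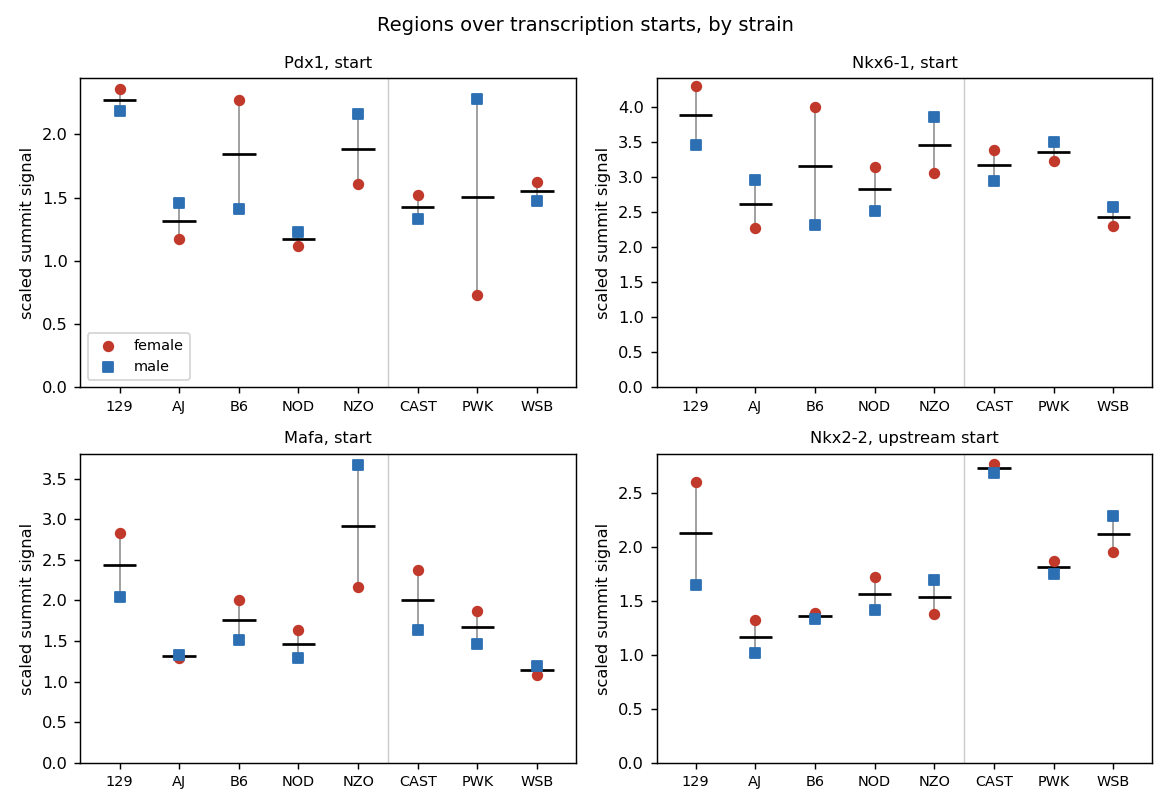
Scaled summit signal over the start regions of Pdx1, Nkx6-1 and Mafa and over the upstream starts of Nkx2-2 is plotted by strain, females as circles, males as squares and the mean of the pair as a bar. The NZO male and female have 3.67 and 2.16 at Mafa, and the 2 CAST samples lie above all others at Nkx2-2, at 2.77 and 2.68.

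A distal Mafa region 8.1 kb upstream, at chr15:75755893-75758206 over an exon of the neighbouring gene Zc3h3, was higher in CAST. Its merged span held 2 separate peaks, 8.1 kb and 9.7 kb upstream of the gene. At the nearer peak the CAST female had 1.56 and the CAST male 1.02, whereas the other 13 samples with a peak there ran from 0.193 in the B6 male to 0.696 in the 129 male, with a median of 0.409, and the NZO male had none. The farther peak was at 0.434 in the CAST male, inside the range of 0.181 to 0.750 in the other 12 samples with that peak. On the region's highest signal, CAST exceeded the mean of the other 7 strains by 1.44 on the log2 scale (SE 0.35, limma adjusted p = 0.00989), a ratio of means of 2.66, and 6.82% of all regions were called higher in CAST. The F test over all strains did not reach the threshold (adjusted p = 0.0606). The CAST contrast was lost only in the fits that left out 1 of the CAST samples, where the difference stayed at 1.68 without the CAST male and 1.20 without the CAST female. It was 0.85 on the deposited mean signal. With no centring it was 2.23, a value that keeps library-wide differences, the CAST medians over the shared regions being 106 and 136 before scaling.

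Nkx2-2 had 17 regions, 4 of them listed in all samples. Its upstream starts lie in the region chr2:147192989-147195799, where CAST had 2.77 and 2.68, against at most 2.60 in the 129 female among the other 14 samples. The summits of the 16 samples there ran from -1016 to 157 bases from the gene start, so the values can stand for different peaks. AJ was lowest, at 1.32 and 1.02. The adjusted p for strain was 0.0305, and CAST exceeded the mean of the other 7 strains by 0.75 on the log2 scale (SE 0.20, limma adjusted p = 0.0161). That CAST call held in 14 of the 16 fits, being lost without the CAST female or the CAST male, where the difference was 0.79 and 0.70, and it was also lost, at 0.49, when samples were centred within 10 bins of GC content (adjusted p = 0.0654). With no centring the difference was 1.53, a value that keeps the library-wide difference of CAST as well. The strain call at this region held in 8 of the 16, those without a 129, B6, NZO or PWK sample, with adjusted p from 0.0133 to 0.118.

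The protein-coding starts of Nkx2-2 lie farther downstream, at chr2:147186101 and chr2:147186404, inside a broad region of 8517 bases, chr2:147183760-147192276, that also covers starts of Nkx2-2os and 6430503K07Rik. It ran from 0.590 in the B6 male to 1.25 in the CAST female, with a limma adjusted p of 0.121 across strains. The strongest summit lay within 50 bases of the coding start in 5 samples, both B6 samples, the 129 male, the AJ female and the NOD male. In 8 samples, which included both samples of CAST, NZO and WSB, it lay 1.79 kb upstream of that start. A region over the last exon, chr2:147177652-147179979, was called for strain (adjusted p = 0.0389). It was lowest in B6, at 0.321 and 0.241, and highest in CAST, at 1.20 and 0.787, although the NZO male and the PWK male reached 1.07 and 0.969. The strongest summits of the samples ran over 1170 bases, so these values can stand for different peaks. This call held in 6 of the 16 fits without 1 library, those without a 129, NOD or NZO sample, with adjusted p from 0.00916 to 0.120. The remaining region listed everywhere, 11.1 kb upstream in an intron of Nkx2-2os, gave an adjusted p of 0.696.

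A further pattern, singled out after its values were seen, lay downstream of Nkx2-2, in intergenic DNA, in a merged region of 8800 bases, chr2:147163200-147171999, 23.3 kb from the upstream starts. A single peak over the centre was listed in 6 samples, both of 129, B6 and PWK, with a scaled signal of 1.05 to 1.82 and a deposited −log10 p of 23.4 to 41.1. In 7 other samples no peak covered the centre, and only small peaks flanked it, on both sides in CAST and WSB and on 1 side in the NOD male and both NZO samples, with a scaled signal from 0.273 in the WSB male up to 0.5 in the NOD male. Both AJ samples listed no peak anywhere in the merged region, and the NOD female had none over or beside the centre. The flanking peaks left an interval free of peaks between chr2:147170730 and chr2:147171233, 504 bases long. In the reference, 98.2% of these bases are marked as repeats, against 64.0% and 25.0% of the 200 bases on either side, and a nucleotide search found 208 matches of at least 400 bases and 95% identity on the assembled chromosomes, the locus itself included, of which 2 reached 99% and 1, the locus, was identical over its full length. Reads of all strains were aligned to the B6 reference, so closed chromatin and absence of this stretch from the genome of a strain cannot be told apart here. When regions listed in at least 12 samples were tested by limma with 0 for a missing peak, the adjusted p for strain at this region was 3.91e-05. The largest single-strain difference was that of AJ, at -5.34 on the log2 scale, with both samples set to 0. That fit took the highest signal anywhere in the 8800 bases, and the region was picked from these same values. The p therefore does not test the peak over the centre.

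**Figure D5:**
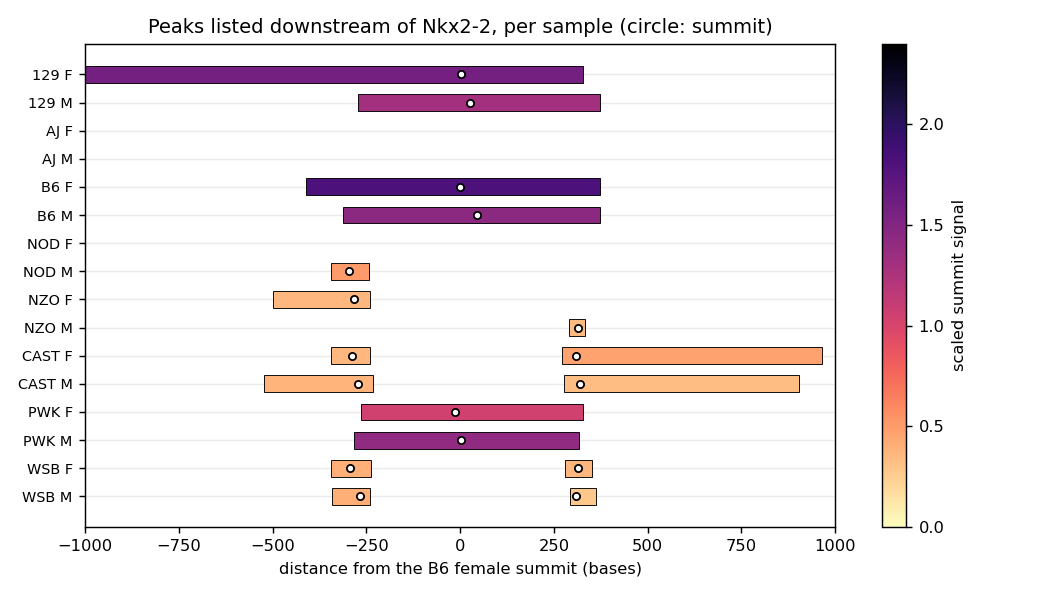
Each bar is a peak of 1 sample in the region 23.3 kb downstream of the upstream starts of Nkx2-2, placed by bases from the summit of the B6 female, coloured by scaled summit signal, with circles for summits, and 129 F runs off the left edge. Peaks over the centre occur in 129, B6 and PWK, and CAST and WSB have peaks on both sides of an empty interval of 504 bases.

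Strain class and sex were each tested in the same 16 regions with limma. None was called for class, wild-derived against classical over the 8 strain means, against 0.0342% of all regions, and the smallest adjusted p was 0.393. At an unadjusted p under 0.05 there were 2 of 16, both at Nkx2-2, and 4960 of 40940 overall. The region over the last exon was 0.72 higher on the log2 scale in the wild-derived strains and the region over the upstream starts 0.53 higher. None was called for sex, against 0% of all regions, with 0 of 16 at an unadjusted p under 0.05 and 1621 of 40940 overall. The smallest adjusted p for sex was 0.999. At the Pdx1 region 5.8 kb upstream the female minus male difference was 0.02 on the log2 scale (SE 0.15), and the mean absolute difference between the sexes of a strain was 0.32.

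Other genes of the islet program were taken over the gene body and 3 kb upstream. Of 24 other islet transcription factor genes, 22 had a region, and 16 of their 48 regions listed in all samples were called for strain, 33.3%. The genes named next were chosen after their values were seen. Myt1 and Foxa2, the latter a forkhead factor that opens pancreatic chromatin, were each called over a start, with adjusted p of 0.00335 and 0.0114 and strain means spanning 1.66 and 1.69 on the log2 scale, CAST highest and AJ lowest in both. Of 14 beta cell genes known as targets of these factors, 13 had a region, and 16 of 38 regions were called, 42.1%, against 35.7% over all regions. The Ins2 start, of the insulin gene, was called with an adjusted p of 0.00496 and the Iapp start, of amylin, with 0.00267. At Slc2a2, of the glucose transporter, the start region chr3:28721501-28722773 was called, with 0.0109. Another start region there, chr3:28694815-28702999, was not called, with 0.176. No region of either list was called for class or sex.

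By strain pattern over the 8 means of centred log2 signal, the genes nearest to Pdx1 at its start among 11004 searched were Tex26 (Pearson r = 0.96), Golga3 (0.95) and Eif4enif1 (0.94). For Nkx6-1 they were Rps24, Cdc23 and Faim, each at 0.98, and for Mafa Gm12258, Myh9 and Calr at 0.98 to 0.99. The upstream starts of Nkx2-2 matched Agtpbp1, Lipt1 and Crtc3 at 0.97, and its coding starts matched Cdh23, Zfp658 and Nfasc at 0.96 to 0.97. Each is the maximum of a search over all these genes, on 8 points that share their libraries, and is a description only.

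The tissue label was checked on markers. All 7 beta cell markers had a start region in every sample, Ins1 at a mean of 3.97 and G6pc2 at 3.27, and among alpha cell markers Gcg, at 4.03, and Irx2 were likewise listed in all. The delta marker Sst, 5 of 6 acinar, 4 of 5 endothelial and 2 of 5 leukocyte markers had no start region in any sample. Other markers of these and further cell types were listed in all 16 samples, Cftr of duct cells at a mean of 0.592, Cd74 of antigen-presenting cells at 1.12, Bhlha15 of acinar cells at 0.697, and Col1a2 and Pdgfra of fibroblasts at 0.918 and 0.594. The summed signal of the 4 duct markers ran from 0.397 to 2.55 over the samples and that of the 3 fibroblast markers from 1.00 to 2.37.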

How the data were processed

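ATAC-seq libraries of pancreatic islets from 8 mouse strains, 1 female and 1 male each, were used as peak lists. Per the labels and the published methods, reads were trimmed by the authors with cutadapt 2.0, aligned to mm10 with Bowtie2 2.3.4.1 and freed of duplicates with Picard 2.9.2, and peaks were called in each sample with MOSAiCS at an FDR of 0.05. Whether read ends were shifted for the transposase cut is not given in the sources used here. The authors deposited for each peak a summit signal, a mean signal whose averaging is not stated, and a −log10 p, none of them scaled to depth. They also deposited strain lists with an IDR for the pair of samples. The summit signal is a whole number at 1 position of a peak and not a count of reads over the region, so no count test was used.

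Peaks on chromosomes 1 to 19 were merged where they overlapped or touched, and annotated with GENCODE M21. The highest summit signal per sample and region was divided by the sample median over regions listed in all 16 samples. Tests were limma 3.58.1 in R 4.3.3 on log2(signal + 1), a scale that understates changes at low signal, with Benjamini-Hochberg adjustment over 40940 regions. Merging joins neighbouring peaks, so 1 value can stand for several peaks, and testing only regions listed in every sample leaves out regions absent from a strain. Strain (F test), sex and each strain against the other 7 were fitted with strain and sex, and wild-derived against classical strains on the 8 strain means. The scripts were tested on simulated data. Motifs were searched with pysam 0.24.0 and repeats with blastn 2.17.0 and the soft-masked RefSeq sequence. Alternatives covered centring, pseudocount, signal, peak threshold, extent and samples.

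The 5 genes, gene lists, motifs and displayed windows were chosen with earlier results of these data known. Regions named were those over a start, the 3 strongest and the 3 of smallest adjusted p for strain of each gene. Chromosomes X and Y were left out. Of the windows searched for motifs, 1 is not reported here.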

Additional observations from a re-analysis of the deposited data

Results flagged for a closer look

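Of 32 groups of 8 samples, the females and the males at each of the 16 regions listed in all samples, 4 held a sample set apart from the others by its gap to the nearest of them, and chance alone gives this in about 1 of 20 groups. At the Pdx1 region 24.3 kb downstream the NZO male had a scaled signal of 0.873, against at most 0.478 in the other males. At the Mafa start the NZO male had 3.67, against at most 2.04. In the same library the summed start signal of 4 duct markers was 2.55 and that of 5 leukocyte markers 3.80, the highest of the 16. That of 7 beta cell markers was 9.20, the lowest. The markers within a sum did not all move together, and their part in both values was not tested. At the Nkx6-1 region 16.5 kb downstream the 129 female had 1.26, against at most 0.736 in the other females. The strongest summits of the samples there ran over 3190 bases, so these values can stand for different peaks. At the Mafa region 8.1 kb upstream the CAST female had 1.56, against at most 0.750. A limma interaction of strain class with sex was called in 0 of the 16 regions, with 0 at an unadjusted p under 0.05.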

How the results depend on the processing

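The 6 strain calls at the 5 genes became 14 with no centring, when 63.2% of all regions were called, 2 of 22 with regions listed in at least 12 samples (18.3% of all), 2 of 8 with the 0.5 of each list with the highest −log10 p (35.4%), 3 of 7 within the gene bodies and 3 kb upstream, 3 without strain 129, AJ, NOD or WSB (25.7% to 35.0%), 1 without CAST (15.5%), and 1 to 8 when 1 library was left out. The 4 single-strain calls became 30 with no centring, 8 with a pseudocount of 10, 9 with regions listed in at least 12 samples, 7 without the sex term, which serves as the replicate block since each strain has 1 sample of each sex, 1 without strain CAST, 12 without strain NZO, 1 within the gene bodies and 3 kb upstream, and 1 to 18 with 1 library left out, the highest without the NZO female and the lowest without either CAST sample. Class and sex gave 0 calls at the 5 genes under every alternative run, 0 to 0 with 1 library left out. The number of regions was 58, and 26 with the 0.5 of each list with the highest −log10 p, 32 with lists of equal length and 16 within the gene bodies and 3 kb upstream. Where peaks had to cover 0.5 of a region, the start region was listed in 3 samples at Pdx1, 3 at Mafa and 6 at the coding starts of Nkx2-2, and no region of the 5 genes was left to test. No share over all regions was computed for the single-strain calls under these alternatives. Their changes can therefore not be read as particular to the 5 genes. The causes were not tested.

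The Pdx1 region 5.8 kb upstream kept its strain call in 32 of 33 alternatives, and the lower signal in 129 in 31 of 32. The log2 differences of 129 ran from -2.04, with no centring, to -1.15. That contrast missed the threshold without the 129 female, at -1.80. With the signal of a single female and male per strain, and with no scaling to read depth other than the sample median, a p above the threshold at the other regions does not show that strains were alike.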
